A study of Mus musculus with 8 samples.

Results

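The genes described here encode the subunits of the mitochondrial oxidative phosphorylation system, measured in livers of 4 groups of mice. Members were the protein-coding genes listed in both count tables whose names begin with Nduf, Uqcr, Cox4 to Cox8 or Atp5, or are Sdha, Sdhb, Sdhc, Sdhd or a protein-coding gene of the mitochondrial genome. Names of pseudogenes were left out. The rule found 104 of the 21721 protein-coding genes that both tables hold, of which 91 lie in the nuclear and 13 in the mitochondrial genome. By complex, they were 36 nuclear and 7 mitochondrial genes of complex I, 4 of complex II, 8 and 1 of complex III, 19 and 3 of complex IV, and 15 and 2 of complex V. These 95 subunits were joined by 8 complex I assembly factors (Ndufaf genes) and Cox7a2l, a factor of respiratory supercomplexes. Ndufa4 and Ndufa4l2 were placed in complex IV, where Ndufa4 is now known to belong. A further 11 names matched in 1 table or belonged to rows that are not protein-coding, and they were not members. Cyc1, the cytochrome c1 subunit of complex III, falls outside the name rule.

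All mice were male, WT (C57BL/6J) and 8-9 weeks old, and 2 livers per group were sequenced 24 h after the dose. The PBS and TAA groups were fed and received PBS or thioacetamide (TAA, 200 mg/kg) intraperitoneally. The Fasted_PBS and Fasted_APAP groups were fasted overnight, received PBS or acetaminophen (APAP, 500 mg/kg) intragastrically, and were kept fasted for 6 h more. Both drugs injure hepatocytes and are used as models of acute liver failure (ALF). The comparisons were TAA vs PBS and Fasted_APAP vs Fasted_PBS, and each asked which genes differ from the matching control liver. Nothing in the labels says more about separate animals than the replicate numbers, so p-values measure the spread between these samples.

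Oxidative phosphorylation couples the oxidation of NADH and succinate to ATP synthesis in the inner mitochondrial membrane. Electrons enter through complex I (NADH dehydrogenase) or complex II (succinate dehydrogenase), pass by coenzyme Q to complex III and by cytochrome c to complex IV, and the proton gradient they build drives complex V, the ATP synthase. Complex II is made from nuclear genes alone, while the other complexes combine nuclear subunits with subunits translated inside the organelle. Hepatocytes are rich in mitochondria, and the reactive metabolite of APAP is known to bind mitochondrial proteins.

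Counts in named genes ranged from 35711238 to 41453751 in the PBS and TAA livers and from 22320159 to 27110074 in the fasted livers. Levels are given in CPM, a gene's counts relative to the total of its library after TMM scaling. Fold changes are on the log2 scale with a standard error (SE), and a gene was called when its adjusted p in the edgeR quasi-likelihood test, taken over all genes of the comparison, was under 0.05. The mitochondrial genes took 6.70% to 7.49% of all counts in the PBS and TAA livers and 5.45% to 6.00% in the fasted livers. The nuclear members took 0.919% and 0.979% in PBS, 0.740% and 0.873% after TAA, 1.05% and 1.10% in Fasted_PBS, and 1.03% and 1.10% in Fasted_APAP. In bulk tissue, fewer cells of a type and less RNA per cell cannot be told apart.

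After TAA, the members lay low as a group, but few passed the test. Of 99 members with enough counts, 12 were called lower, where 13.8% of all 16847 genes tested were called lower, and 1 was called higher, where 12.1% of all genes were. The called share of the 86 nuclear members, 14.0% lower, was thus near that of all genes in the edgeR test. Their median log2 fold change was -0.41, against 0.03 over all genes, and 83 of 86 were negative. In 72 of the 86 both TAA livers lay below both PBS livers, an arrangement that 34.0% of all tested genes showed, and in 0 both lay above, which 35.9% of all genes did. The 12 called members were Sdha and Sdhb of complex II, Ndufa2, Ndufa6, Ndufb2, Ndufb3, Ndufc2, Ndufs1, Ndufs3 and Ndufs7 of complex I, Atp5j of complex V and the assembly factor Ndufaf3. Without PBS replicate 1, PBS replicate 2, TAA replicate 1 or TAA replicate 2 the nuclear median was -0.50, -0.32, -0.32 or -0.53. The median of all genes was then 0.06, 0.05, 0.01 or -0.00. Fewer members, and fewer of all genes, were called in each of these fits, fewest without a PBS liver. Lost calls are named below for some members only. The TAA calls on the others were also lost without PBS replicate 1 and without PBS replicate 2. DESeq2 called 27 members lower and 1 higher, and 25 of the 86 nuclear members lower. Over all 16847 genes it called 2776 lower and 2364 higher.

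After APAP, more members were called, in both directions. Of 98 members tested, 34 were called lower, where 27.5% of all 14794 genes were, and 6 were called higher, where 28.6% of all genes were. Among the 85 nuclear members 38.8% were lower and 4.71% higher. Their median log2 fold change was -0.18, against 0.04 over all genes. Both APAP livers lay below both controls in 49 of the 85 (38.1% of all genes) and above both in 14 (41.3% of all genes). Without Fasted_APAP replicate 1, Fasted_APAP replicate 2, Fasted_PBS replicate 1 or Fasted_PBS replicate 2 the nuclear median was -0.17, -0.22, -0.19 or -0.25. Fewer members, and fewer of all genes, were called in each of these fits. Scaling changed the counts of calls too. With library totals in place of TMM factors the median of all genes rose to 0.23 after TAA and 0.22 after APAP, calls over all genes went from 2031 up and 2317 down to 3029 and 1752 in the TAA comparison, and from 4238 and 4070 to 5150 and 3166 in the APAP comparison. Under that scaling TAA gave 1 higher and 4 lower members, and APAP gave 12 and 15. Relative to the median of all genes, the nuclear members' median was -0.43 after TAA under both scalings and -0.22 after APAP under both. All 13 members called after TAA and all 40 called after APAP kept their direction under each alternative that was run.

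**Figure D1:**
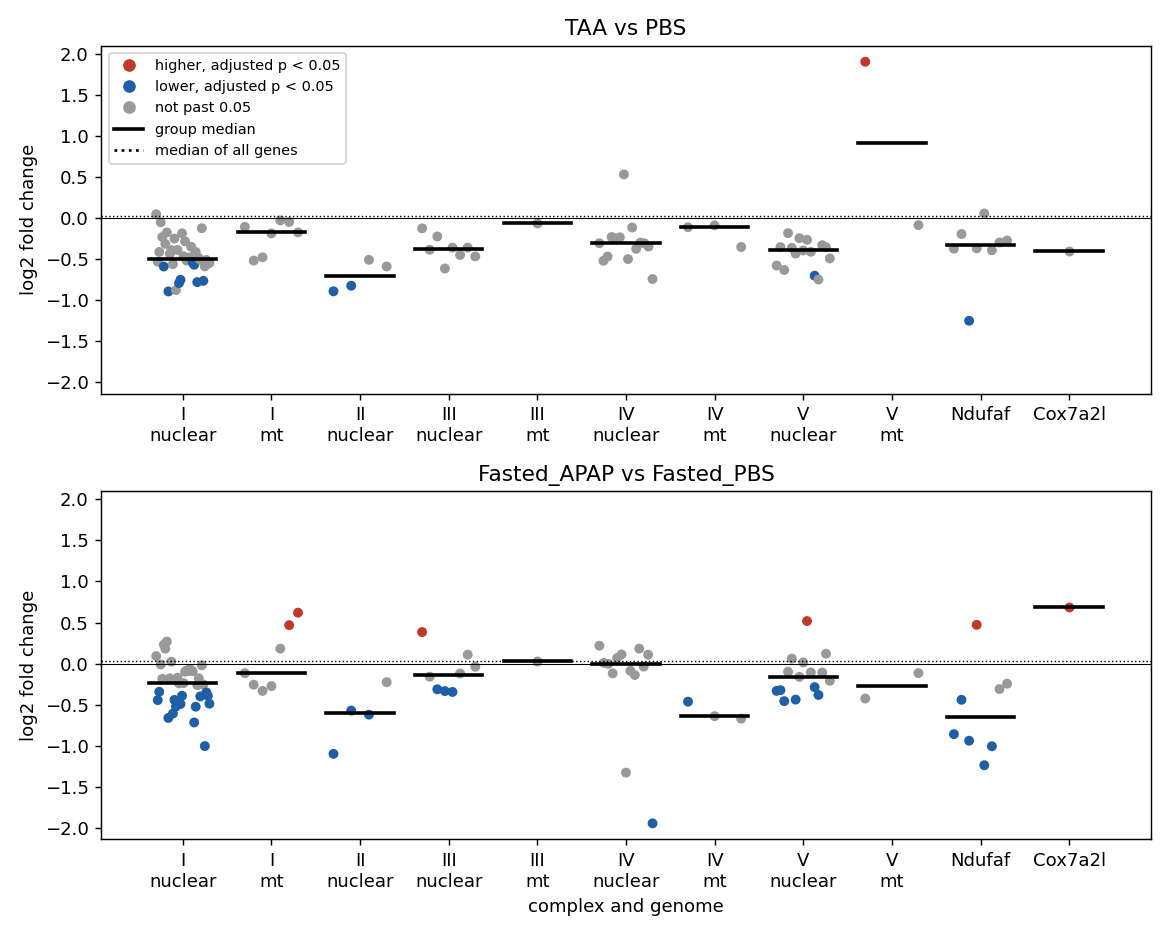
Log2 fold change (y axis) of every member tested, by complex and genome (x axis), in TAA vs PBS (top) and Fasted_APAP vs Fasted_PBS (bottom), with red and blue points for members called higher and lower, black bars for group medians and a dotted line for the median of all genes. Nuclear members of each complex centre below 0 after TAA, while after APAP the nuclear complex IV genes centre near 0 (median -0.00 with TMM scaling) and complex II lies lowest among the nuclear subunits (median -0.60).

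Complex II had the lowest median of the 5 sets of nuclear subunits in both comparisons, -0.71 after TAA and -0.60 after APAP, and all 4 of its genes lay below the controls in both livers each time, as 34.0% and 38.1% of all genes did. Sdha, the flavoprotein that oxidizes succinate, was at 381 and 479 CPM in the PBS livers and 196 and 268 CPM after TAA. The PBS and TAA livers did not overlap, with means of 430 ± 69.5 (SD, n = 2) and 232 ± 50.6 CPM, and the log2 fold change was -0.89 (SE 0.24, adjusted p = 0.0434). In the fasted livers Sdha was at 519 and 505 CPM in controls and 228 and 250 CPM after APAP. That fall had a log2 fold change of -1.10 (SE 0.12, adjusted p = 3.50e-05), the smallest adjusted p of any member in that comparison. Sdhb, the iron-sulfur subunit, was at 154 and 187 CPM in PBS and 82.2 and 111 CPM in TAA (-0.82, SE 0.21, adjusted p = 0.0393). After APAP it was at 101 and 111 CPM, against 161 and 155 CPM in controls (-0.57, SE 0.11, adjusted p = 0.0015). Sdhc, a membrane anchor that holds the haem and the coenzyme Q site, was called by edgeR after APAP alone. It was at 160 and 165 CPM in controls and 101 and 111 CPM in APAP livers (-0.62, SE 0.11, adjusted p = 8.93e-04). Its log2 fold change after TAA was -0.51 (adjusted p = 0.0697), and the 2 responses did not differ by test (adjusted p = 0.849). Sdhd, the other anchor, had -0.59 after TAA and -0.23 after APAP, with adjusted p of 0.0544 and 0.104 in edgeR. DESeq2 called all 4 complex II genes lower after TAA and 3 lower after APAP. The edgeR calls on Sdha and Sdhb after TAA were lost without PBS replicate 1, PBS replicate 2 or TAA replicate 1, and with library totals as the scaling.

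Complex I, the largest complex, had 8 of 36 nuclear genes called lower after TAA and 15 called lower after APAP, with 0 called higher in either by edgeR or DESeq2. Over all genes 13.8% were lower after TAA and 27.5% after APAP. DESeq2 called 15 of the 36 lower after TAA and 13 after APAP. Over all genes it called 2776 of 16847 and 3673 of 14794 lower. Of its 7 nuclear core subunits, which carry the flavin and the iron-sulfur clusters and are conserved from bacteria, 3 were lower after TAA and 5 after APAP, and all 7 lay below the controls in both livers each time, as 34.0% and 38.1% of all genes did. Of the 29 accessory subunits 5 were lower after TAA and 10 after APAP. Ndufs8, which carries a pair of iron-sulfur clusters near the coenzyme Q site, was at 64.5 and 56.6 CPM in Fasted_PBS and 31.7 and 28.7 CPM in Fasted_APAP. The livers did not overlap, and the level fell by 1.00 on the log2 scale (SE 0.12, adjusted p = 5.93e-05). After TAA it was at 29.8 and 36.2 CPM, against 43.9 and 55.3 CPM in PBS, which did not pass the test (-0.59, SE 0.18, adjusted p = 0.0674).

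Ndufs1, the largest core subunit, fell in both comparisons. It was at 97.8 and 98.4 CPM in PBS and 63.3 and 69.1 CPM in TAA livers (-0.57, SE 0.14, adjusted p = 0.0350), and at 120 and 123 CPM in Fasted_PBS and 72.3 and 75.7 CPM in Fasted_APAP livers (-0.72, SE 0.10, adjusted p = 2.53e-04). In each comparison the controls lay close together and well above the treated pair. Ndufs7, which holds the last iron-sulfur cluster before coenzyme Q, was lower after TAA, at 46.5 and 52.2 CPM in PBS and 28.1 and 30.0 CPM in TAA (-0.76, SE 0.14, adjusted p = 0.0170). After APAP it was at 41.6 and 39.6 CPM, against 48.9 and 48.0 CPM (-0.25, SE 0.10, adjusted p = 0.0588). Ndufs3, a core subunit of the peripheral arm, had -0.78 after TAA (SE 0.18, adjusted p = 0.0285) and -0.26 after APAP (adjusted p = 0.0544). Its processed pseudogene Gm12251, 98.6% identical over 792 bases, took 3.36% to 5.39% as many counts as the gene in the PBS and TAA livers.

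Among accessory subunits, Ndufa6 was lower in both comparisons. It was at 120 and 134 CPM in PBS and 61.6 and 75.4 CPM in TAA (-0.89, SE 0.17, adjusted p = 0.0181), and at 126 and 118 CPM in Fasted_PBS and 76.6 and 78.1 CPM in Fasted_APAP (-0.66, SE 0.10, adjusted p = 4.59e-04). Its call after TAA was lost without PBS replicate 1 or PBS replicate 2. Ndufb3, a membrane-arm subunit, was also lower in both, by -0.75 (adjusted p = 0.0159) and -0.49 (adjusted p = 0.00419). Ndufb2 was lower after TAA, at 32.6 and 28.4 CPM in PBS and 15.4 and 19.9 CPM in TAA (-0.79, SE 0.19, adjusted p = 0.0332). In the fasted livers it overlapped between groups, at 26.6 and 32.6 CPM in controls and 23.4 and 26.7 CPM after APAP. Ndufa9, which lies beside the coenzyme Q chamber, was at 98.7 and 100.5 CPM in Fasted_PBS and 65.8 and 64.9 CPM in Fasted_APAP (-0.61, SE 0.10, adjusted p = 6.23e-04). Ndufa2 went the other way in the fasted livers. It fell after TAA, from 61.0 and 69.7 CPM to 43.9 and 43.0 CPM (-0.59, SE 0.14, adjusted p = 0.0331), and after APAP it was at 66.6 and 61.8 CPM, against 52.7 and 56.6 CPM in controls (0.23, SE 0.10, adjusted p = 0.0850). Ndufb4 was called lower after APAP (-0.39, adjusted p = 0.0291), but the fasted table gave its pseudogenes, chiefly the identical Ndufb4c on chromosome 15, from 119% to 182% as many counts as Ndufb4, against 9.57% to 12.7% in the other table.

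Complex III had 8 nuclear members with a median of -0.37 after TAA, where 0 were called by edgeR, 3 had an unadjusted p under 0.05 and DESeq2 called 1 lower. After APAP 3 were lower and 1 higher, where 27.5% and 28.6% of all genes were. Uqcrc1, a core protein of the matrix side, was at 272 and 251 CPM in Fasted_PBS and 205 and 210 CPM in Fasted_APAP (-0.33, SE 0.11, adjusted p = 0.0272). Uqcrc2, its partner, was at 241 and 245 CPM and then 176 and 207 CPM (-0.34, SE 0.12, adjusted p = 0.0325), and Uqcrb, a small subunit at the coenzyme Q site, had -0.31 (adjusted p = 0.0435). Each of these 3 calls was lost with library totals, without Fasted_APAP replicate 1 and without Fasted_PBS replicate 1. Uqcr10, a small subunit, rose from 99.8 and 94.2 CPM to 124 and 129 CPM (0.38, SE 0.11, adjusted p = 0.0108), a call lost without Fasted_PBS replicate 2. Uqcrq, a small subunit with the highest level of the nuclear complex III genes in the PBS and TAA livers, was at 235 and 278 CPM in PBS and 170 and 202 CPM in TAA (-0.47, adjusted p = 0.122).

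In complex IV, cytochrome c oxidase, 12 of 13 nuclear genes tested after APAP were not called and 1 was lower, where 27.5% of all genes were lower. Their median was -0.00, and with library totals it was 0.18, against 0.04 for complex III and 0.02 for complex V. After TAA 0 of 14 were called by edgeR or DESeq2, 1 had an unadjusted p under 0.05, and the median was -0.31. Cox4i1, the regulatory subunit of the liver form, was at 370 and 370 CPM in Fasted_PBS and 442 and 420 CPM in Fasted_APAP. Both APAP livers lay above both controls, and the log2 fold change was 0.22 (SE 0.11, adjusted p = 0.127). With library totals as the scaling this change passed the test. After TAA Cox4i1 was at 149 and 197 CPM, against 194 and 235 CPM in PBS (-0.31, adjusted p = 0.322). The member called lower was Ndufa4l2, a hypoxia-induced relative of Ndufa4. It had 32 and 24 counts in Fasted_PBS and 7 and 9 in Fasted_APAP, which is 1.30 and 1.11 CPM against 0.287 and 0.331 CPM (-1.94, SE 0.48, adjusted p = 0.00658). That call was lost without Fasted_APAP replicate 1 or Fasted_PBS replicate 1. Ndufa4 itself was at 255 and 254 CPM and then 263 and 285 CPM (0.11, adjusted p = 0.434).

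Several complex IV subunits exist as a form found in liver and most tissues and a form of fewer tissues, such as heart and skeletal muscle or testis. The widespread forms were abundant in all 8 livers. Cox6a1 ranged from 146 to 265 CPM, Cox6b1 from 107 to 170 CPM, Cox7a2 from 78.2 to 90.4 CPM, Cox7b from 93.6 to 149 CPM and Cox8a from 131 to 200 CPM, and none was called in either comparison. The restricted forms were at or near 0. Cox7b2 and Cox8c had no counts in any liver, Cox8b had none in the PBS and TAA livers, and Cox4i2, Cox6a2 and Cox6b2 stayed below 0.6 CPM. Cox7a1, the heart and muscle form, was at 1.39 CPM in Fasted_PBS replicate 2 and at or below 0.419 CPM in the other 7 livers. Cox8b, also a muscle form, was highest in the same liver, at 0.369 CPM. That liver also held the skeletal muscle markers, whose summed level over 12 genes was 56.9 CPM there, 6.21 CPM in Fasted_APAP replicate 2, and at most 1.50 CPM in the other 6 livers. Without Fasted_PBS replicate 2 the log2 fold change of Cox7a1 after APAP went from -1.33 to 0.53, with adjusted p of 0.233 and 0.733.

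**Figure D2:**
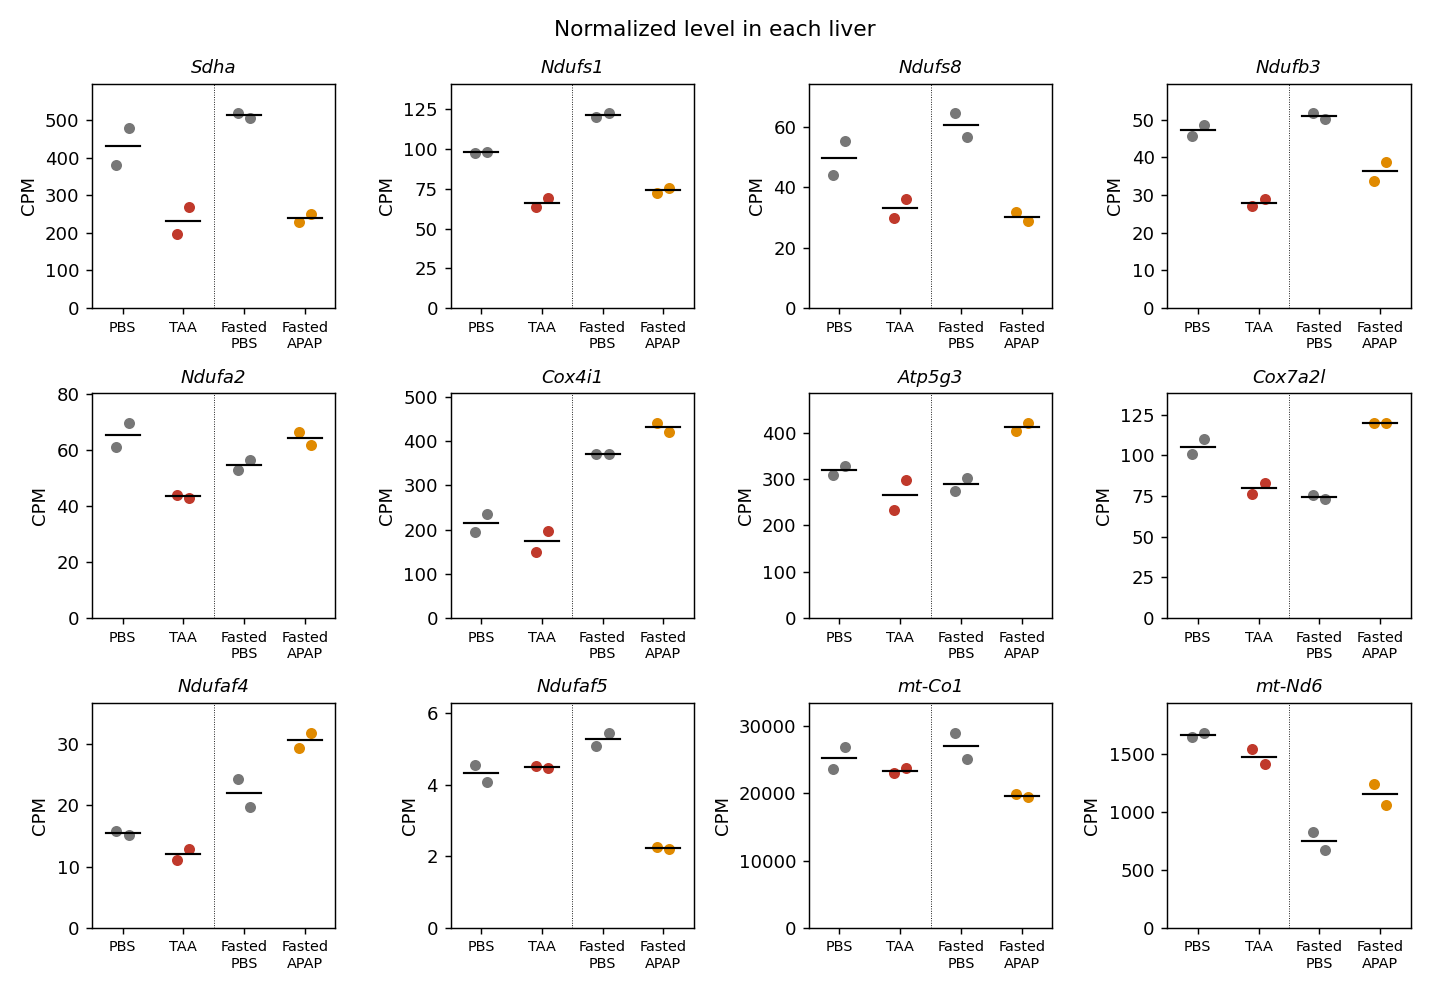
Normalized level in CPM (y axis, from 0) of 12 members in each of the 8 livers, by group (x axis), with a black bar at each group mean and a dotted line between the 2 separately normalized tables. Sdha, Ndufs1 and Ndufb3 were lower in both treated groups than in their controls, while Cox7a2l, Ndufaf4 and Atp5g3 were higher after APAP and Ndufaf5 fell after APAP from 5.08 and 5.45 CPM to 2.26 and 2.20 CPM.

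Complex V, the ATP synthase, had 1 of 15 nuclear genes called lower after TAA and 6 after APAP (13.8% and 27.5% of all genes), with medians of -0.39 and -0.16. DESeq2 called 4 lower after TAA and 6 after APAP. All 15 were negative after TAA and 11 after APAP. Atp5j, a subunit of the peripheral stalk, was lower in both. It was at 82.7 and 99.4 CPM in PBS and 53.0 and 59.0 CPM in TAA (-0.70, SE 0.16, adjusted p = 0.0294), and at 128 and 127 CPM in Fasted_PBS and 99.7 and 109 CPM in Fasted_APAP (-0.29, SE 0.11, adjusted p = 0.0443). Atp5b, the catalytic beta subunit, had the highest level of the nuclear members in all 8 livers. It was at 770.4 and 989.7 CPM in PBS and 580 and 799 CPM in TAA, which overlapped (-0.35, adjusted p = 0.346), and at 1180.3 and 1166 CPM in Fasted_PBS and 886 and 989.9 CPM in Fasted_APAP (-0.32, SE 0.12, adjusted p = 0.0477). Atp5c1, the gamma subunit of the central stalk, fell after APAP from 240 and 229 CPM to 162 and 180 CPM (-0.46, SE 0.11, adjusted p = 0.00657). Atp5f1, of the peripheral stalk, fell from 333 and 312 CPM to 223 and 253 CPM (-0.44, SE 0.12, adjusted p = 0.0103). Atp5j2, a small membrane subunit, and Atp5a1, the alpha subunit, had -0.38 and -0.33 after APAP (adjusted p of 0.0122 and 0.0376). The calls on Atp5j were lost with library totals in both comparisons (adjusted p of 0.0564 after TAA and 0.498 after APAP), without each of the 4 livers in turn after TAA, and after APAP without Fasted_APAP replicate 1, Fasted_PBS replicate 1 or Fasted_PBS replicate 2, with the replicate block and without the robust step. Each of the APAP calls on Atp5a1, Atp5b, Atp5c1, Atp5f1 and Atp5j2 was lost with library totals as the scaling.

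The membrane ring of the ATP synthase is built from 1 peptide, subunit c, that 3 nuclear genes encode with different import sequences. Atp5g3 rose after APAP, from 274 and 303 CPM to 405 and 422 CPM (0.52, SE 0.12, adjusted p = 0.00387). After TAA it was at 232 and 298 CPM, against 309 and 327 CPM in PBS (-0.26, adjusted p = 0.357), and the difference between the 2 responses, -0.81, had an adjusted p of 0.0506. Atp5g1 was at 141 and 134 CPM and then 118 and 128 CPM (-0.16, adjusted p = 0.232). Atp5g2 had 106 and 96 counts in Fasted_PBS and 93 and 136 in Fasted_APAP, while in the same livers its 100% identical pseudogene Gm10175 on chromosome 7 had 2427, 2364, 2626 and 2617. In the PBS and TAA livers Atp5g2 had 2927 to 3998 counts and Gm10175 255 to 313. With all its pseudogene rows added, Atp5g2 had a log2 fold change of -0.03 after APAP (adjusted p = 0.865). Reads of Atp5g2 and Gm10175 cannot be told apart over the shared sequence, so the level of Atp5g2 alone is uncertain in the fasted table.

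The 8 complex I assembly factors, which build the complex and are not part of it, had 5 members lower and 1 higher after APAP, where 27.5% of all genes were lower and 28.6% higher. After TAA 1 was lower, where 13.8% of all genes were. Ndufaf1, which binds the early membrane module, fell after APAP from 23.5 and 20.6 CPM to 11.7 and 12.6 CPM (-0.86, SE 0.14, adjusted p = 5.18e-04). Ndufaf5, which modifies a core subunit, fell from 5.08 and 5.45 CPM to 2.26 and 2.20 CPM (-1.24, SE 0.25, adjusted p = 0.00189), and Ndufaf6 fell by 1.01 on the log2 scale (adjusted p = 0.00112). Ndufaf3 was lower in both, at 6.80 and 11.5 CPM in PBS and 4.19 and 3.49 CPM in TAA (-1.25, SE 0.32, adjusted p = 0.0396), and at 8.33 and 8.45 CPM in Fasted_PBS and 4.72 and 4.04 CPM in Fasted_APAP (-0.94, adjusted p = 0.00259). Ndufaf4, a partner of Ndufaf3 in early assembly, rose after APAP from 24.4 and 19.8 CPM to 29.4 and 31.9 CPM (0.47, SE 0.13, adjusted p = 0.0131). That call was lost without Fasted_APAP replicate 2 (0.41, adjusted p = 0.0709) or Fasted_PBS replicate 2 (0.28, adjusted p = 0.167). Cox7a2l, the factor of respiratory supercomplexes, had the highest log2 fold change of any member after APAP. It was at 75.7 and 73.4 CPM in Fasted_PBS and 120 and 120 CPM in Fasted_APAP (0.69, SE 0.10, adjusted p = 3.16e-04), and at 101 and 110 CPM in PBS and 76.2 and 83.2 CPM in TAA (-0.40, SE 0.15, adjusted p = 0.0965). Its pseudogene Gm6969, 97.7% identical over 342 bases, took 3.22% to 11.8% as many counts as Cox7a2l in the fasted livers, and with those counts added the log2 fold change after APAP was 0.60 (adjusted p = 0.000732).

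The responses of 5 members to TAA and APAP differed by test, out of 99 tested in a joint fit of all 8 livers. Over all 17381 genes, 4.63% had a higher and 6.37% a lower response to TAA than to APAP. Cox7a2l (difference -1.12, SE 0.16, adjusted p = 0.00517), Ndufa2 (-0.85, SE 0.17, adjusted p = 0.0165) and Ndufaf4 (-0.87, SE 0.21, adjusted p = 0.0350) responded lower to TAA. Ndufaf5 (1.26, SE 0.31, adjusted p = 0.0367) and mt-Atp6 (2.30, SE 0.28, adjusted p = 0.00278) responded higher. Without PBS replicate 2, as without any 1 fasted liver, the difference stayed past the threshold for Cox7a2l and mt-Atp6 but not for the other 3. Fasting, route and the counting of reads differ between the tables together with the drug, so they cannot be told apart from it. Members called lower in both comparisons numbered 7, namely Sdha, Sdhb, Ndufs1, Ndufa6, Ndufb3, Ndufaf3 and Atp5j. They were 7.22% of the 97 members tested in both, and 11.6% of all 13812 genes tested in both were lower in both. Across the 84 nuclear members tested in both, the 2 sets of fold changes had a Pearson r of 0.42 and a Spearman rho of 0.48, a description over genes of the same libraries. Over all genes tested in both, r was 0.63 and rho 0.61. The sign was the same for 65 of the 84 (77.4%) and for 73.1% of all genes. No member was called in opposite directions in the 2 comparisons.

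**Figure D3:**
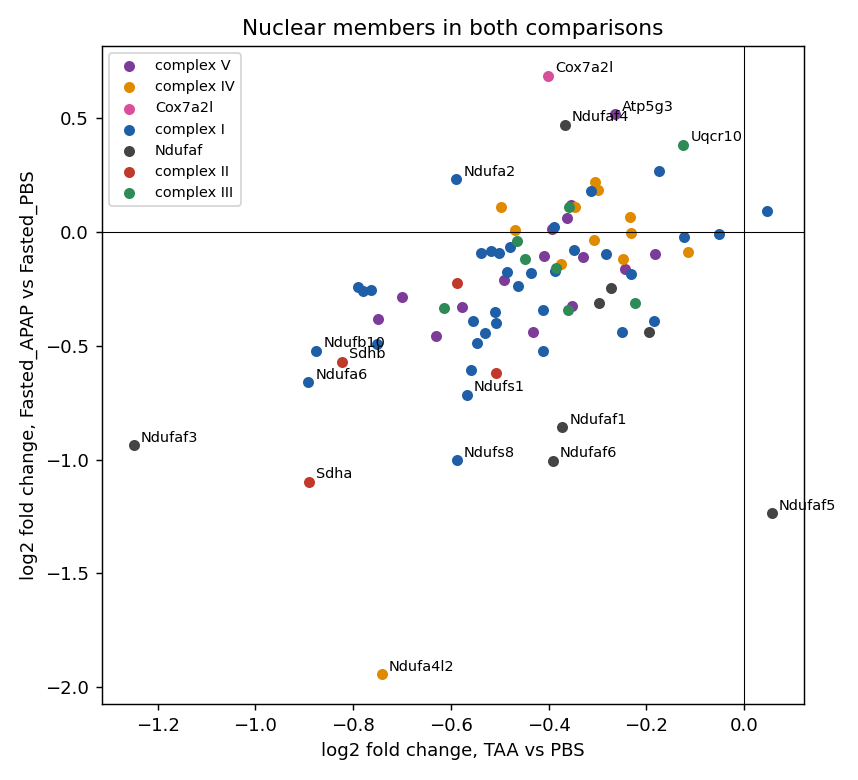
Log2 fold change in TAA vs PBS (x axis) against Fasted_APAP vs Fasted_PBS (y axis) for the 84 nuclear members tested in both, coloured by complex. Most points lie in the lower left, with Sdha at -0.89 and -1.10, while Cox7a2l (-0.40 and 0.69), Ndufaf4 (-0.37 and 0.47) and Ndufa2 (-0.59 and 0.23) lie upper left.

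The 13 mitochondrial genes are read from long transcripts of both strands of a circular genome, and the RNA is then cut into single messages. Their counts cannot be read without their nuclear copies. Chromosome 1 of GRCm38 holds a run of mitochondrial sequence whose pieces are annotated as pseudogenes, and matching the GENCODE transcripts gave copies of mt-Co1, mt-Co2, mt-Atp6, mt-Co3, mt-Nd3, mt-Nd4l and mt-Nd4 at 99.7% identity or more. An older copy on chromosome 2 has drifted further. The stretch below is shown because it is the same in mt-Co2 (chrM:7013-7696, plus strand, bases 445 to 564 of the transcript) and in Gm28661 (chr1:24614885-24615565, minus strand), while Gm13341 (chr2:22587291-22587962, minus strand, bases 433 to 552) differs at 7 of its 120 bases, in capitals.
mt-Co2: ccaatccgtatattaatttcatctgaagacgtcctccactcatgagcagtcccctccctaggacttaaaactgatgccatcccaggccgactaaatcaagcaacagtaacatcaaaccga
Gm28661: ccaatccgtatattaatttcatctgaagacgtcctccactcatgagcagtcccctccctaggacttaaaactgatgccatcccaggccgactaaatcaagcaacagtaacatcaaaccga
Gm13341: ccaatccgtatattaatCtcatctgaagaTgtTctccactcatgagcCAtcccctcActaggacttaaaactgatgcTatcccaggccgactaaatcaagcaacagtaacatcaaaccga

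A read from this stretch fits mt-Co2 and Gm28661 equally well, and the 2 tables divided such reads differently. In the PBS and TAA livers mt-Co2 had 148169, 148546, 146107 and 143093 counts and Gm28661 had 147010, 147308, 143706 and 142013. In Fasted_PBS and Fasted_APAP mt-Co2 had 11892, 6151, 7711 and 4791 counts and Gm28661 had 227264, 170115, 158377 and 168921. For mt-Co2 the fed table thus gave the gene and its copy nearly equal counts, and the fasted table gave most of them to the copy. Gm13341 had 2072 to 2904 counts in the PBS and TAA livers and 4 to 10 in the fasted livers. The same held for mt-Co3 and its 100% identical copy Gm28437, with 190161 and 190396 counts in PBS replicate 1 and 12209 and 227134 in Fasted_PBS replicate 1. It also held for mt-Nd3 and mt-Nd4l. It did not hold for mt-Nd4, whose 100% identical copy Gm28439 had 71628 to 82577 counts in the PBS and TAA livers and 0 in each fasted liver. Gm29216, a copy of mt-Co1, took 17.2% to 18.0% as many counts as the gene in the PBS and TAA livers and 5.44% to 7.33% in the fasted livers. The share of all counts in the mitochondrial members and their copies together was 8.83% and 8.90% in PBS, 9.68% and 9.38% after TAA, 8.62% and 7.83% in Fasted_PBS and 7.91% and 7.52% in Fasted_APAP.

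**Figure D4:**
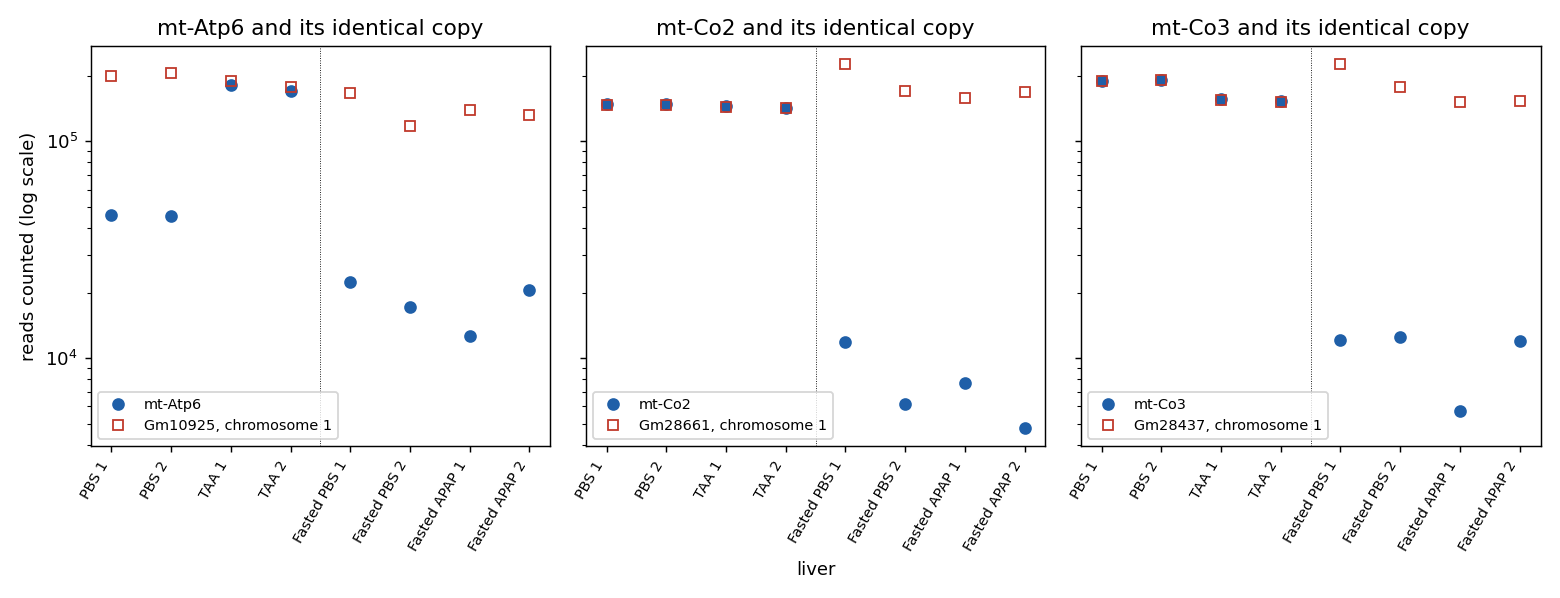
Reads counted (y axis, log scale) for mt-Atp6, mt-Co2 and mt-Co3 (filled circles) and their 100% identical copies on chromosome 1 (open squares) in each of the 8 livers (x axis). Gene and copy coincide in the PBS and TAA livers for mt-Co2 and mt-Co3, separate in the fasted livers, and for mt-Atp6 separate in the PBS livers but not after TAA.

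mt-Atp6, the proton channel subunit of the ATP synthase, was the member with the largest change after TAA and the member called higher. It was at 1226 and 1213 CPM in PBS and 4664 and 4457 CPM in TAA (1.90, SE 0.22, adjusted p = 0.00552). Its copy Gm10925 (chr1:24613974-24614651, minus strand) did not share this rise. mt-Atp6 had 45786 and 45203 counts in PBS and 182458 and 170071 after TAA, and Gm10925 had 200084 and 206575 in PBS and 190767 and 179121 after TAA. Bases 301 to 420 of both transcripts are shown because they are the same letter for letter, as is the rest of the 678 bases aligned.
mt-Atp6: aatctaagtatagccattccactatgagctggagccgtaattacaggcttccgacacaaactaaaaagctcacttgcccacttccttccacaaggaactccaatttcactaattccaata
Gm10925: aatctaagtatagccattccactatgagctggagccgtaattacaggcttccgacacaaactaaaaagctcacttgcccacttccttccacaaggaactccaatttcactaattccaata

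With the copy's counts added to those of the gene, the log2 fold change of mt-Atp6 after TAA was 0.49 (adjusted p = 0.177) and the call was lost. On its own row the call was also lost without PBS replicate 1 (1.89, adjusted p = 0.0614) or PBS replicate 2 (1.90, adjusted p = 0.0713). Adding the copy also took the difference between the TAA and APAP responses from 2.30 to 0.69 (adjusted p = 0.120). mt-Atp8, whose gene overlaps the start of mt-Atp6, was at 1452 and 1547 CPM in PBS and 1411 and 1416 CPM in TAA (-0.09, adjusted p = 0.777). mt-Co3, the next gene downstream of mt-Atp6, had -0.35 (adjusted p = 0.276). After APAP mt-Atp6 was at 522 and 755 CPM, against 914 and 800 CPM in Fasted_PBS (-0.43, adjusted p = 0.0717). It was called lower by DESeq2 (adjusted p = 0.0365), without the low-count filter (adjusted p = 0.00199) and without Fasted_APAP replicate 2 (-0.72, adjusted p = 0.00628), and with its copies added it had -0.24 (adjusted p = 0.198).

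The other 12 mitochondrial genes were not called after TAA, with log2 fold changes from -0.52 (mt-Nd2) to -0.03 (mt-Nd4l). DESeq2 called mt-Nd2 and mt-Nd3 lower. The median over the 13 was -0.11, and it was 0.10 with library totals as the scaling. After APAP 2 of the 13 were called higher and 1 lower, where 28.6% and 27.5% of all genes were. mt-Nd5 was at 3679 and 3509 CPM in Fasted_PBS and 5297 and 4646 CPM in Fasted_APAP (0.47, SE 0.13, adjusted p = 0.0133). mt-Nd6 was at 822 and 672 CPM and then 1236 and 1061 CPM (0.62, SE 0.14, adjusted p = 0.00456). Both APAP livers lay above both controls for each, and both calls were lost without Fasted_PBS replicate 2, with adjusted p of 0.109 and 0.0573. mt-Nd5 and mt-Nd6 are complex I subunits on opposite strands, and their annotated genes overlap at their ends (chrM:11742-13565 and chrM:13552-14070). mt-Nd6 is the sole protein gene of the light strand, and whether reads were counted by strand is not given in the sources used here, so antisense reads cannot be told apart from it.

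The 3 mitochondrial complex IV genes were negative after APAP, and for mt-Co2 the groups overlapped. mt-Co1, the catalytic subunit with the haem and copper centre, was at 29044 and 25183 CPM in Fasted_PBS and 19910 and 19448 CPM in Fasted_APAP (-0.46, SE 0.14, adjusted p = 0.0180). The call was lost with library totals (adjusted p = 0.073), without either APAP liver and without Fasted_PBS replicate 1, with adjusted p from 0.0644 to 0.121. mt-Co2 and mt-Co3 had -0.64 and -0.67 with adjusted p of 0.342 and 0.169 on their own rows. mt-Co3 was called without Fasted_APAP replicate 2 (-1.20, adjusted p = 0.000451) and without the low-count filter (adjusted p = 0.0179), and with the replicate number as a block mt-Co2 (-0.65, adjusted p = 0.00135) and mt-Co3 (-0.73, adjusted p = 0.00781) were both called. With the counts of its copies added, mt-Co2 had -0.44 (adjusted p = 0.0234), mt-Co3 had -0.56 (adjusted p = 0.005) and mt-Nd3 had -0.35 (adjusted p = 0.031). These sums were made after the counts had been seen. mt-Cytb, the mitochondrial subunit of complex III and a gene whose closest copy took at most 17 counts, was at 9815 and 7807 CPM in Fasted_PBS and 9796 and 8179 CPM in Fasted_APAP (0.03, adjusted p = 0.893). mt-Nd1, mt-Nd2 and mt-Nd4 had -0.12, -0.26 and -0.27 after APAP, with adjusted p from 0.138 to 0.493.

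**Figure D5:**
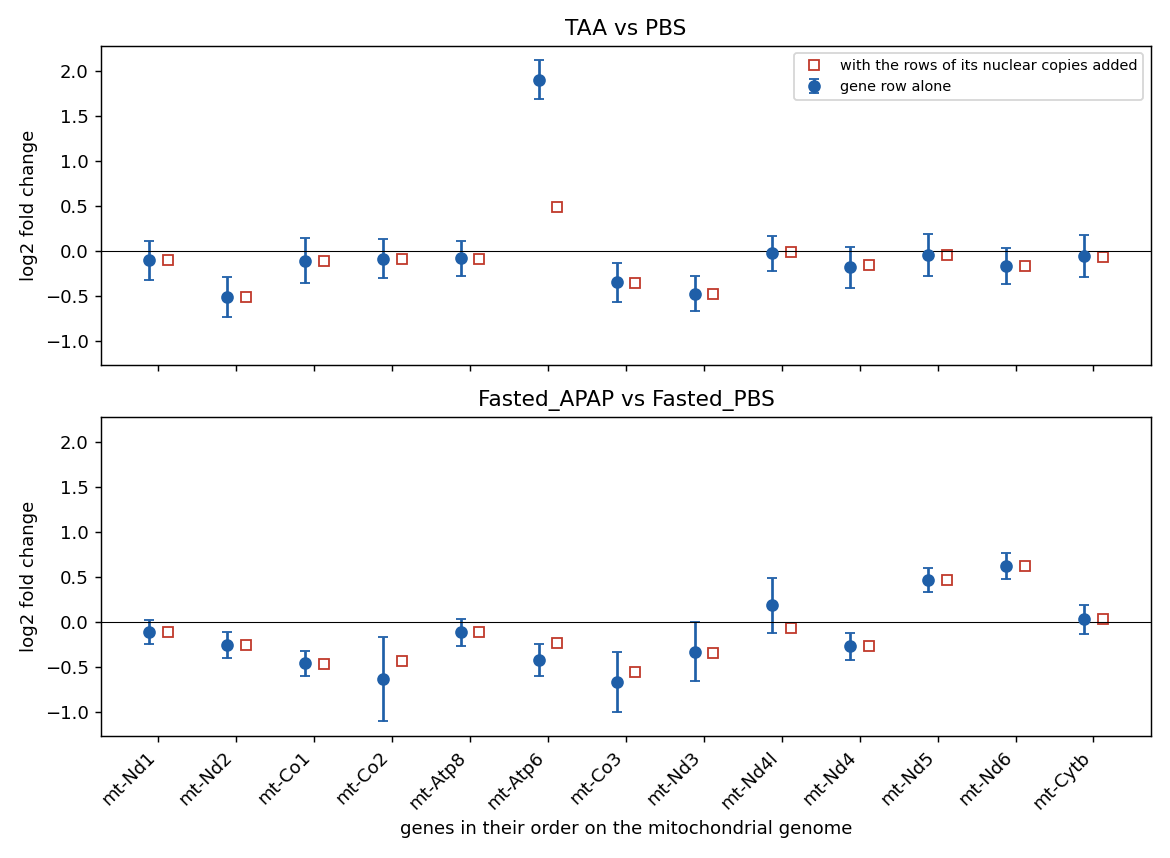
Log2 fold change (y axis) of the 13 mitochondrial genes in their order on the genome (x axis) after TAA (top) and APAP (bottom), from the gene's own row with its SE (filled circles) and with the counts of its nuclear copies added (open squares). The single point far above 0 after TAA is mt-Atp6 at 1.90, which is at 0.49 with its copy, and after APAP mt-Nd5 and mt-Nd6 lie above 0 at 0.47 and 0.62.

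Sharing with pseudogenes was smaller for most nuclear members. By sequence, at 90% identity or more over at least 100 bases and 80% of the pseudogene, 113 pseudogene rows matched 45 members, 34 of them nuclear. The pseudogene counts exceeded 5% of the member's own in 1 liver or more for 4 nuclear members in each table. They were Atp5g2, Atp5l, Ndufb4 and Ndufs3 in the PBS and TAA livers and Atp5g2, Atp5l, Ndufb4 and Cox7a2l in the fasted livers. Adding all matched rows left 12 nuclear members called lower after TAA, and after APAP it gave 37 members lower and 6 higher.

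The promoters of these genes are known to hold sites of nuclear respiratory factors that act on many mitochondrial genes. RefSeq promoters (250 bases before to 50 after the start, GRCm38.p6) were found for 75 of the 91 nuclear members, and both strands were searched. The NRF1 sequence GCGCATGCG occurred in 10 of them (13.3%, against 2.61% of 17492 genes), the YY1 sequence AAGATGGCG in 8 (10.7% against 2.14%), the ETS sequence CCGGAAGT bound by GABPA in 5 (6.67% against 5.69%) and the ERR sequence TCAAGGTCA in 2 (2.67% against 0.377%). No promoter printed here holds more than 1 of the 4 motifs. Ndufaf4 (chr4:24897833-24898132, plus strand) and Ndufaf5 (chr2:140170396-140170695, plus strand) are shown because both hold the NRF1 sequence and were called in opposite directions after APAP. Of the other members with the NRF1 sequence, Ndufa11 and Uqcrc1 were called lower after APAP. The rest were not called in either comparison. Ndufs7 (chr10:80249199-80249498, plus strand) holds the YY1 sequence and was lower after TAA, and Atp5g3 (chr2:73911277-73911576, minus strand) holds the ERR sequence on the other strand and was higher after APAP. Of the other members with the YY1 sequence, Atp5j was called lower in both comparisons, and Atp5j2 and Ndufa9 were called lower after APAP alone. Ndufaf8, Ndufc1, Ndufs4 and Ndufs6 were not called in either comparison. Sdhd, the other member with the ERR sequence, was not called in either comparison. Whether the motifs relate to the fold changes was not tested. Capitals mark the motif, and where the NRF1 sequence matches on both strands in overlapping positions the joined run is marked.
Ndufaf4: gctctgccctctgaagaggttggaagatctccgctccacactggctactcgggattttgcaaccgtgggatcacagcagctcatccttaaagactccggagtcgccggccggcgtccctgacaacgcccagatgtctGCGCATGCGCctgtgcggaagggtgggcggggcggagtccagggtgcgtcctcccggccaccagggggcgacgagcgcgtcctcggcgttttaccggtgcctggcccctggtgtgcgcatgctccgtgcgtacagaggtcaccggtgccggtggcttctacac
Ndufaf5: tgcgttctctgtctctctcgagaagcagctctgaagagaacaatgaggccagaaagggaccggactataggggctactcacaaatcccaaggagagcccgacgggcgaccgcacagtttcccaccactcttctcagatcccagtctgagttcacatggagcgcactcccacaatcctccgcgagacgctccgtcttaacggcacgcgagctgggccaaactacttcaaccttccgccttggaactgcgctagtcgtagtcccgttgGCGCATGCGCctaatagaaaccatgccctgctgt
Ndufs7: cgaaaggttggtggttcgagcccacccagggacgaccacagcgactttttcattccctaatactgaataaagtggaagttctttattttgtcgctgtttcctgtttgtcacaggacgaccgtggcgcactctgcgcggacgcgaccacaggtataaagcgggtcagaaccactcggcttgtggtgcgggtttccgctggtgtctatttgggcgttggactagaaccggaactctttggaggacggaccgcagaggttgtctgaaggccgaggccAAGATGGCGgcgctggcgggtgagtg
Atp5g3: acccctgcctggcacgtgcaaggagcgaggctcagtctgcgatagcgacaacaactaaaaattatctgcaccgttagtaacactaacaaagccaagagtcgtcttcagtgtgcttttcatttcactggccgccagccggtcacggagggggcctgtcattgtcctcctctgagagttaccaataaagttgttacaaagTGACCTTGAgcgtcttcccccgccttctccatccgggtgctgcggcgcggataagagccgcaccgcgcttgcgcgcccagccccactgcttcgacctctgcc

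Related genes outside the name rule were counted by list, against 13.8% lower and 12.1% higher over all genes after TAA, and 27.5% lower and 28.6% higher after APAP. Of 40 other assembly factors 8 were lower and 0 higher after TAA, and 13 were lower and 3 higher of 39 after APAP, with medians of -0.33 and -0.25. Acad9, a complex I assembly factor, had -0.94 after APAP (SE 0.12, adjusted p = 1.16e-04) and Ecsit, another, had -1.03 (adjusted p = 3.10e-04), while Cox10, which makes haem for complex IV, had 0.88 (adjusted p = 0.00203). Of 10 further subunits and electron carriers, 2 were lower after TAA, and 4 were lower and 2 higher after APAP. Etfa and Etfb, which pass electrons from fatty acid oxidation to coenzyme Q, were lower in both comparisons, Etfa by -0.87 (adjusted p = 0.0356) and -0.79 (adjusted p = 6.31e-04). Cycs, cytochrome c, rose after APAP from 92.6 and 82.1 CPM to 147 and 166 CPM (0.84, SE 0.12, adjusted p = 2.16e-04). Cyc1 had -0.47 and -0.23, with adjusted p of 0.152 and 0.0843.

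Of 13 genes of coenzyme Q synthesis, 4 were lower and 1 higher after TAA, and 6 were lower and 3 higher after APAP. Coq8a, an atypical kinase needed for that synthesis, was at 122 and 189.6 CPM in PBS and 12.8 and 17.8 CPM in TAA (-3.35, SE 0.30, adjusted p = 0.00354), and at 275 and 277 CPM in Fasted_PBS and 30.0 and 25.1 CPM in Fasted_APAP (-3.33, SE 0.13, adjusted p = 8.73e-08). Its relative Coq8b rose in both, by 1.00 (adjusted p = 0.00746) and 2.00 (adjusted p = 5.44e-07). Of 26 genes of mitochondrial DNA and RNA, 1 was higher and 0 lower after TAA, and 7 were lower and 4 higher after APAP. Lrpprc, which stabilizes mitochondrial mRNA, fell after APAP from 119 and 110 CPM to 66.5 and 70.0 CPM (-0.75, adjusted p = 2.22e-04). Of 17 genes of the TCA cycle, 3 were lower after TAA, and 8 were lower and 4 higher after APAP.

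Of 13 regulators of mitochondrial genes, 4 were lower and 2 higher after TAA, and 4 were lower and 5 higher after APAP. Ppargc1a, a coactivator of mitochondrial biogenesis, was at 13.2 and 10.5 CPM in PBS and 4.50 and 4.40 CPM in TAA (-1.42, SE 0.22, adjusted p = 0.0107), and at 12.8 and 13.8 CPM in Fasted_PBS and 6.24 and 8.26 CPM in Fasted_APAP (-0.87, SE 0.18, adjusted p = 0.00232). Its relative Pprc1 rose in both, by 1.16 (adjusted p = 0.0176) and 1.86 (adjusted p = 1.39e-06). Esrra, the ERR alpha receptor, was lower after TAA (-0.88, adjusted p = 0.0106), and Gabpa was higher after APAP (0.53, adjusted p = 0.00233).

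Of 12 hepatocyte markers, 2 were lower and 0 higher after TAA, where 13.8% of all genes were lower, and 8 were lower and 1 higher after APAP, where 27.5% were lower. Their medians were -0.20 and -0.51. Their summed level was 88784 and 117582 CPM in PBS, 66769 and 104425 CPM in TAA, 142912 and 123961 CPM in Fasted_PBS, and 100680 and 86166 CPM in Fasted_APAP. The sums overlapped between PBS and TAA and not between the fasted groups, and all 12 were above 0 in every liver. Markers of macrophages and monocytes summed to 617 to 703 CPM in the PBS and TAA livers and 84.1 to 181 CPM in the fasted livers, and those of neutrophils to 83.7 to 113 CPM and 2.64 to 22.8 CPM. Of 12 neutrophil markers 4 were higher and 5 lower after TAA, where 12.1% and 13.8% of all genes were. After APAP 6 had enough counts to be tested and all 6 were higher, where 28.6% of all genes were. Retnlg, 1 of the markers, was at 0 CPM in both Fasted_PBS livers and 1.89 and 2.75 CPM in Fasted_APAP. A marker near 0 in controls could be tested only if it was high after APAP, so its direction was fixed by the filter. Endothelial and stellate markers summed to 172 to 253 CPM over all 8 livers. Markers of white and brown adipocytes, the latter rich in mitochondria, summed to 5.87 and 9.80 CPM in PBS, 35.2 and 63.8 CPM in TAA, 14.2 and 24.7 CPM in Fasted_PBS and 544 and 516 CPM in Fasted_APAP, mostly from Cidec, a lipid droplet gene, at 490.0 and 442 CPM in the APAP livers. Red cell markers summed to 239 CPM in TAA replicate 1 and 1787 CPM in TAA replicate 2. The part of these cell types in the members' fold changes was not tested.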

How the data were processed

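RNA was extracted with Trizol, and libraries were made from 1 µg of total RNA. The authors trimmed, aligned and counted reads (Trim Galore, HISAT2, featureCounts and GRCm38, mm10, in the submitters' processing notes, whose versions are not given in the sources used). For PBS and TAA livers the deposited values are whole-number counts per gene. For fasted livers the authors deposited estimated counts, of which 27.0% to 29.7% of nonzero values were not whole. They were rounded, although the design had assumed counts, and which step made them fractional is not given. Members were matched by gene ID over 48286 IDs in both tables. The 548 assembled loci of the fasted table name no gene and held 0.457% to 2.46% of its counts, and they were left out of library sizes and tests.

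Each comparison was fitted on its own 4 livers in edgeR 4.0.16 (R 4.3.3), with filterByExpr (minimum count 10, total 15), TMM factors, robust quasi-likelihood tests and Benjamini-Hochberg adjustment over all genes. The 2 responses were compared in 1 fit of 8 livers with an interaction term. SEs are approximate and come from the fold change and its F statistic (|log2 fold change|/√F). Counts are whole reads without molecular identifiers, and 2 livers per group limit precision. Levels of the 2 tables were normalized separately. Replicates of a group differed by 21.4 to 152 times the chi-square of counting noise, so none is a copy. The scripts were tested on simulated data.

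Pseudogenes were matched to members with blastn 2.17.0 on GENCODE M21 transcripts (GRCm38). Alternatives were DESeq2 1.42.0, its size factors, library totals, scaling without mitochondrial genes, no low-count filter, no robust step, a replicate block, leaving out each liver, and pseudogene rows added by name or, chosen after seeing the data, by sequence. Named genes were the mitochondrial genes, up to 4 called nuclear members per complex, direction and comparison with a mean of at least 10 CPM, the most abundant member of each complex, isoform sets, members that differed between responses, and up to 3 called genes per related list. Other members named (Ndufb3, Ndufb4, Ndufc2, Ndufaf3, Ndufaf6, Sdhd and Atp5l) were picked after their values were seen, as was the choice among genes named from the lists. Some members were named for a promoter motif alone. Some genes are not reported here. The members and all lists were chosen with earlier results of these data known.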

Additional observations from a re-analysis of the deposited data

Results flagged for a closer look

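The responses of 5 members to TAA and to APAP differed in the joint edgeR fit of 8 livers, by an interaction term adjusted over 17381 genes. Each difference is the TAA log2 fold change minus the APAP one. mt-Atp6 had a difference of 2.30 (SE 0.28, adjusted p = 0.00278), from 1.90 after TAA and -0.43 after APAP, and it was 0.69 (adjusted p = 0.120) with the counts of its identical copy on chromosome 1 added. Cox7a2l had -1.12 (SE 0.16, adjusted p = 0.00517), with both TAA livers below both PBS livers and both APAP livers above both controls. With its pseudogene's counts added Cox7a2l had -1.04 (adjusted p = 0.00663). Ndufa2 had -0.85 (SE 0.17, adjusted p = 0.0165), and its livers also lay on opposite sides of their controls. Ndufaf4 had -0.87 (SE 0.21, adjusted p = 0.0350) and Ndufaf5 had 1.26 (SE 0.31, adjusted p = 0.0367), and both lost the call without any 1 of 7 livers, the exception being TAA replicate 2. Feeding and the deposited table differ between the comparisons together with the drug and cannot be told apart from it.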

How the results depend on the processing

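With 2 livers per group, leaving out 1 liver leaves an arm whose single sample is assumed to vary like the other group. In the TAA and the APAP comparison the calls over all genes fell in each such fit too. Members higher and lower after TAA numbered 1 and 12, and leaving out a liver gave 0 to 1 higher and 0 to 10 lower. DESeq2 gave 27 lower, and 2776 of all 16847 genes. Library totals gave 4 lower, and adding pseudogene rows by name or by sequence gave 0 higher. After APAP 6 were higher and 34 lower, and leaving out a liver gave 2 to 6 higher and 19 to 29 lower, while library totals gave 12 higher and 15 lower. In the difference between responses 2 were higher and 3 lower, with 1 to 2 higher and 1 to 4 lower when a liver was left out. DESeq2 gave 5 lower there, and no filter on low counts and pseudogene rows by name or by sequence each gave 1 higher. The median of the mitochondrial genes after TAA, -0.11, turned to 0.098 with library totals. Over the single genes named and all alternatives, 1450 fold changes kept their direction and side of the threshold, 134 lost the call, 36 gained one, and 46 that were not called changed sign. The causes of these changes were not tested.

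Same-numbered livers had a correlation of deviations over genes of 0.0665 for TAA and PBS and 0.0574 for the fasted groups. With 2 livers per group this cannot decide whether the replicate numbers pair the livers. With the replicate number as a block, 1 member was higher and 14 lower after TAA, 6 and 33 after APAP, and 1 and 2 in the difference.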
